A study of Homo sapiens with 16 samples.

Results

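The G1 cyclins and CDK inhibitors examined here are 10 genes, namely the D-type cyclins CCND1, CCND2 and CCND3, the E-type cyclins CCNE1 and CCNE2, the CIP/KIP inhibitors CDKN1A, CDKN1B and CDKN1C, and the INK4 inhibitors CDKN2C and CDKN2D. They were chosen by gene symbol from a count table of 42351 genes, and all 10 were among the 15067 genes that passed the filter on low counts. PolyA RNA of 2 lung cancer cell lines was sequenced after 0, 3, 6 and 12 h of HGF, the ligand of the receptor tyrosine kinase MET, with 2 biological replicates for each of the 8 combinations of line and time. By the labels the cells with wild-type MET (wt MET) were A549, derived from a lung adenocarcinoma, whereas the methods and text of the study name EKVX for wt MET and nowhere A549, so that the identity of the wt MET line rests on the labels. NCI-H596, an adenosquamous lung carcinoma line, carries MET without exon 14 (MET∆14), which removes the juxtamembrane domain of the receptor. All 16 cultures were deprived of serum before HGF was added, no culture was followed over time without HGF, and the dose of HGF for these samples is not given in the sources used here. With 1 line for each form of MET, the form of MET and the line cannot be told apart, and time in culture cannot be told apart from time with HGF.

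Passage through G1 is driven by cyclin-dependent kinases. D-type cyclins are made in response to growth factors and activate CDK4 and CDK6, and E-type cyclins then activate CDK2 at the entry into S phase. Together these kinases phosphorylate the retinoblastoma protein RB1 and free E2F transcription factors, whose targets include the E-type cyclins. Inhibitors of the INK4 family, which CDKN2C (p18) and CDKN2D (p19) belong to, bind CDK4 and CDK6 in place of the cyclin. Inhibitors of the CIP/KIP family, CDKN1A (p21), CDKN1B (p27) and CDKN1C (p57), bind cyclin-CDK complexes and block CDK2 above all. CDKN1A is a textbook target of p53 and is also induced by growth factor signalling, while CDKN1B is high in resting cells and is repressed downstream of AKT, which phosphorylates the FOXO factors that activate it.

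Levels are given as normalised read counts (CPM, counts scaled to a common library total by the trimmed mean of M values, TMM). A gene is called where the quasi-likelihood test of edgeR gave an adjusted p (Benjamini-Hochberg, over all 15067 genes) under 0.05. The 16 libraries held 10158590 to 23909304 counts, and in 15 of them the library with the most similar profile was the other replicate of its condition. The exception, replicate 2 of MET∆14 at 12 h, lay nearer to a 6 h library (r = 0.987) than to its own replicate (r = 0.982). For replicate 1 of that condition the nearest library was replicate 2. That r of 0.982 was the lowest nearest-library r of the 16 libraries. Simple epithelial markers summed to 1737 to 2518 CPM with wt MET and 2016 to 3227 CPM with MET∆14, with a different make-up. With wt MET, EPCAM stayed at 0.868 to 2.97 CPM, CDH1 at 2.54 to 12.6 CPM and KRT19 at 26.7 to 53.1 CPM. With MET∆14 these were at 24.4 to 37.4, 80.7 to 125 and 931 to 1754 CPM. KRT18 was higher with wt MET (1213 to 1523 against 358 to 701 CPM), and the ranges of KRT8 overlapped. Squamous markers summed to at most 3.10 CPM with wt MET, with KRT14 at 0, and to at least 2348 CPM with MET∆14. Fibroblast markers summed to 11.1 to 19.3 CPM with wt MET and 187 to 346 CPM with MET∆14. COL3A1 alone made up 170 to 328 CPM of the latter, while COL1A2 and DCN were at most 0.150 and 0.0993 CPM and LUM was at 0. Leukocyte and endothelial markers summed to 34.9 to 42.3 CPM with wt MET and 108 to 156 CPM with MET∆14. Most of this was CD68, at 34.3 to 41.8 CPM and 108 to 154 CPM. The part of these differences between the lines in the results was not tested, and in bulk RNA fewer cells that express a gene cannot be told apart from less of its RNA per cell.

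The letters upstream of 4 members are shown because CDKN1B and CDKN2C fell and CCND3 and CCNE1 rose with MET∆14, as 2 pairs of members that moved together. Each is the 250 bases before a RefSeq transcript start (GRCh38.p14, 5′ to 3′ on the strand of the gene). Capitals mark each match, as written or as its reverse complement, to the E-box CACGTG, to CCAAT or to the GC box GGGCGG. None of the marked matches overlap.
CDKN1B, chr12:12717118-12717367, plus strand: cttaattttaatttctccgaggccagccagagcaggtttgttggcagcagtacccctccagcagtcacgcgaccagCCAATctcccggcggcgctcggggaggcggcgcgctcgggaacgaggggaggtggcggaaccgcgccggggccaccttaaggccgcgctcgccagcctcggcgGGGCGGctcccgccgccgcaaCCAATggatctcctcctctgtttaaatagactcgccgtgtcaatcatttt
CDKN2C, chr1:50969995-50970244, plus strand: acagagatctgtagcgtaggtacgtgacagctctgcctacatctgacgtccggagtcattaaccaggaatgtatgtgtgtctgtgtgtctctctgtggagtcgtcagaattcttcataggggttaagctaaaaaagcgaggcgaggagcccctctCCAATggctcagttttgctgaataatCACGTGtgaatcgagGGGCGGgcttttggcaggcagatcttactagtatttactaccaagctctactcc
CCND3, chr6:41941809-41942058, minus strand: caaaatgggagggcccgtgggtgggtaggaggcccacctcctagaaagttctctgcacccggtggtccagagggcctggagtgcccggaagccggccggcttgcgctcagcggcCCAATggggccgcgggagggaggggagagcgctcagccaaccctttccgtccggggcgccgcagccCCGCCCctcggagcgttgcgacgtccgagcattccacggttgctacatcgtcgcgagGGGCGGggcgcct
CCNE1, chr19:29811741-29811990, plus strand: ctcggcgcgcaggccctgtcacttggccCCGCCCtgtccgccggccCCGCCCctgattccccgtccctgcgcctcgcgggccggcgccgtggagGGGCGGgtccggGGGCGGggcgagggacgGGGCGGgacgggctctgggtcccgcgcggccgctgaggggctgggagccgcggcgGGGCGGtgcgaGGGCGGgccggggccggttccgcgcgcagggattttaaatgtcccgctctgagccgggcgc

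For CDKN2C and CCND3 the table has 3 windows each, of which 1 is shown, picked by no fixed rule among those without annotated exon bases. The CDKN1B window held CCAAT at 174 and 50 bases before the start and a GC box at 71, and the CDKN2C window shown held CCAAT at 95, an E-box at 69 and a GC box at 54. The CCND3 window shown held CCAAT at 136 and GC boxes at 70 and 13, whereas the CCNE1 window held 7 GC boxes and no CCAAT. The other windows differed from these. For CDKN2C 1 held an E-box alone, at 220, and 1 held 5 GC boxes alone, and for CCND3 1 held 5 GC boxes without CCAAT and 1 held CCAAT alone, at 64. The windows with 5 GC boxes lay within annotated exons over all of their 250 bases. Of 35116 RefSeq promoter windows of this length, 32.0% held CCAAT, 42.6% the GC box and 6.34% the E-box. Searches for E2F letters (TTTGGCGC or TTTCCCGC, in 1.93% of all windows), for the FOXO letters GTAAACA (2.98%), for the AP-1 letters TGACTCA (4.2%) and for the CRE letters TGACGTCA (1.65%) had no match in the windows of the 6 members listed in the table. A match here is a match of letters only.

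Before HGF, the 2 lines held different sets of these genes. MET∆14 cells held more of 7 members and less of CDKN1A and CDKN1B, and the CCND1 libraries of the lines overlapped. With MET∆14 against wt MET at 0 h, 9 of the 10 members were called, beside 80.2% of all tested genes, so that a call between these lines says little about a gene by itself. Among them 7 were higher with MET∆14 (40.6% of all genes) and 2 lower (39.6%). CCND2 passed the filter on low counts only through its MET∆14 libraries, so its own call is partly fixed by the filter, and it was lost without replicate 2 of wt MET (edgeR adjusted p = 0.111) or replicate 1 of MET∆14 (0.0774) at 0 h.

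CCNE2 differed most in size. Its wt MET libraries at 0 h held 0.217 and 0.424 CPM, from 3 and 6 counts, and its MET∆14 libraries held 29.6 and 31.1 CPM. The fitted difference was 6.53 ± 0.186 (log2 ± SE, n = 2 and 2, adjusted p = 1.55e-13 by edgeR). With so few wt MET counts that SE is smaller than the sampling noise of the counts and understates the spread. On chromosome 8 (94879770 to 94896678 in hg38, minus strand, GENCODE v44), 56.9% of the exon bases of CCNE2 lie opposite INTS8, whose reads could be counted for either gene if strand was not used, and whether it was is not stated. INTS8 stood at 37.8 to 54.0 CPM in the wt MET libraries, in which CCNE2 reached at most 0.810 CPM. In the MET∆14 libraries INTS8 stood at 28.9 to 48.0 CPM, beside 29.6 to 38.5 CPM for CCNE2.

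CDKN1A was the most abundant member with wt MET and differed the other way. Its wt MET libraries at 0 h held 1275 and 1477 CPM and its MET∆14 libraries 196 and 190.4 CPM, a 7.12-fold lower level with MET∆14 (log2 difference -2.83 ± 0.153, edgeR adjusted p = 1.33e-10). CDKN1B held 78.4 and 79.5 CPM with wt MET against 25.0 and 21.8 CPM with MET∆14 (-1.76 ± 0.0899, edgeR adjusted p = 6.95e-11). Neither pair of groups overlapped. The remaining members other than CCND1 were higher with MET∆14. CDKN2C was 8.06-fold higher with MET∆14 (edgeR adjusted p = 5.89e-11), CDKN1C 6.80-fold (1.99e-08) and CDKN2D 2.83-fold (3.27e-05). CCNE1 was 4.18-fold higher (4.02e-09), CCND3 3.01-fold (5.33e-09) and CCND2 2.79-fold (0.0132). CCND1 alone was not called, with 348 and 284 CPM against 256 and 288 CPM, overlapping groups and a log2 difference of -0.21 ± 0.102 (edgeR adjusted p = 0.0676). It was called, as lower with MET∆14, without replicate 2 of wt MET at 0 h (-0.33, edgeR adjusted p = 0.0116) and without either replicate of MET∆14 at 12 h (0.0252 and 0.0409).

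**Figure D1:**
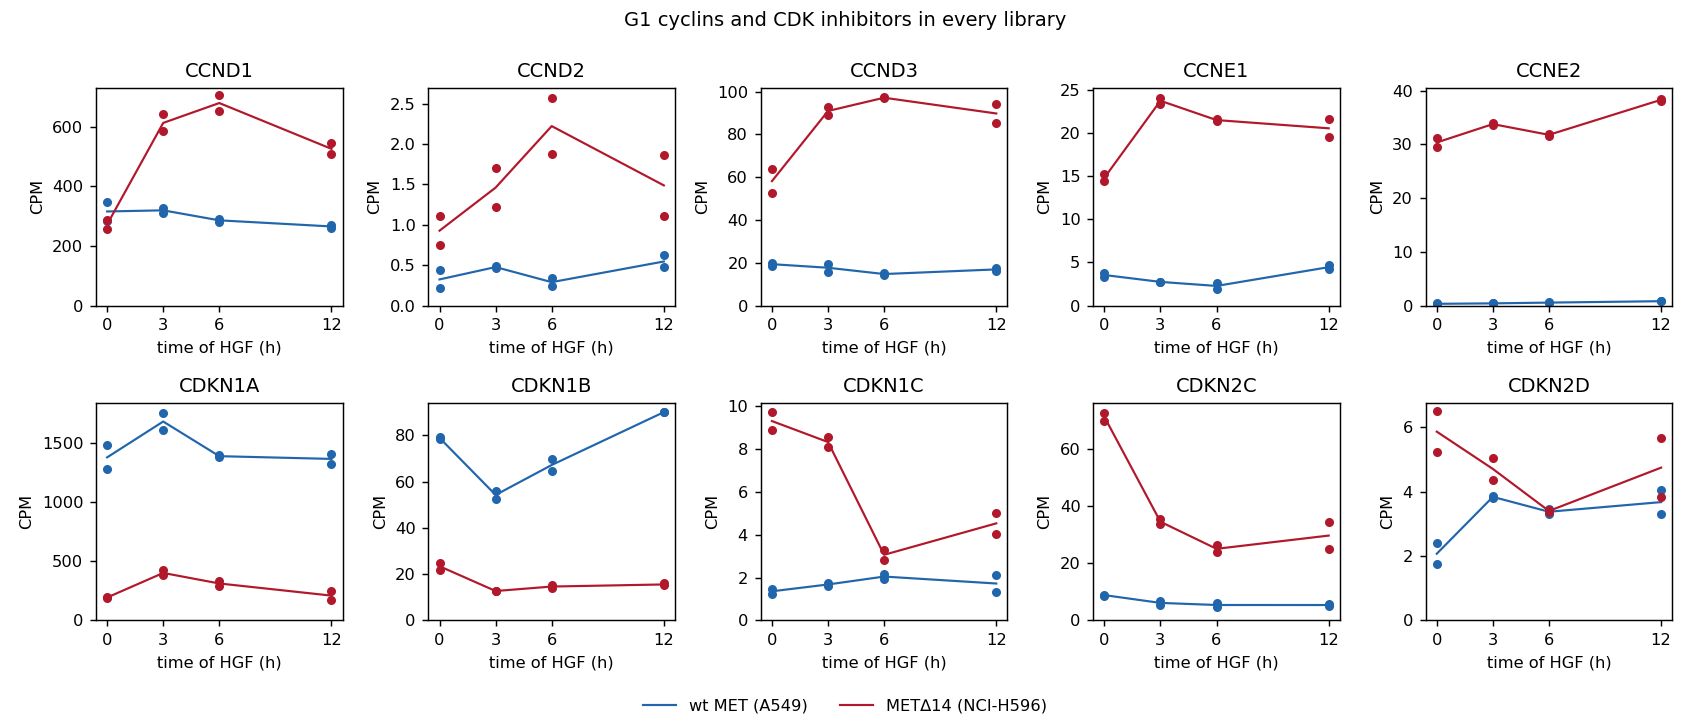
CPM of the 10 members against hours of HGF (linear axes that start at 0, 1 panel a gene), with 1 point for each library and lines through the means of the 2 replicates for wt MET (blue) and MET∆14 (red). The CCND1 points of the lines overlap at 0 h and those of MET∆14 rise, to between 507 and 707 CPM at the later times, while the MET∆14 points of CDKN2C fall from 69.8 and 72.6 CPM to between 23.8 and 35.4 CPM.

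CCND1, the cyclin D1 gene, is the D-type cyclin best known as a target of growth factor signalling (chromosome 11, 69641156 to 69654474, plus strand). In MET∆14 cells the gene held 256 and 288 CPM at 0 h, 641 and 585 CPM at 3 h, 707 and 653 CPM at 6 h and 545 and 507 CPM at 12 h. In wt MET cells there were 348 and 284 CPM at 0 h, 312 and 327 CPM at 3 h, 282 and 290.4 CPM at 6 h and 260.4 and 271 CPM at 12 h. Every MET∆14 library with HGF stood above every library without it, while the wt MET values stayed within or just under their 0 h range. In MET∆14 cells CCND1 rose 2.25-fold at 3 h, 2.495-fold at 6 h and 1.93-fold at 12 h (log2 fold changes 1.17 ± 0.103, 1.32 ± 0.103 and 0.95 ± 0.103, edgeR adjusted p = 7.12e-07, 1.36e-07 and 6.07e-06). In wt MET cells the log2 fold changes were 0.02, -0.14 and -0.25, none of them called (edgeR adjusted p = 0.950, 0.310 and 0.0713). The 12 h value was called as a fall without replicate 2 of wt MET at 0 h (-0.39, edgeR adjusted p = 0.0129), without either replicate of MET∆14 at 12 h (0.0206 and 0.0159) and with the line fitted alone (0.0292). The responses of the lines differed at each time, by 1.15, 1.46 and 1.1999 on the log2 scale (edgeR adjusted p = 6.55e-05, 3.96e-06 and 4.10e-05). LTO1, which lies opposite 11.7% of the exon bases of CCND1, held 20.0 to 36.9 CPM with MET∆14 and 46.4 to 54.9 CPM with wt MET.

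CCND3, the cyclin D3 gene (chromosome 6, 41934934 to 42050357, minus strand), rose with MET∆14 too and less in size. Its MET∆14 libraries held 52.7 and 63.6 CPM at 0 h, 89.1 and 92.8 CPM at 3 h, 97.4 and 96.9 CPM at 6 h and 85.6 and 94.0 CPM at 12 h. All 6 libraries with HGF were above the 0 h pair. The log2 fold changes were 0.64 ± 0.107, 0.74 ± 0.107 and 0.62 ± 0.108 (edgeR adjusted p = 0.000307, 5.54e-05 and 0.000367). With wt MET it ran from 14.2 to 20.1 CPM over the 8 libraries and fell at 6 h only (log2 fold change -0.39 ± 0.129, edgeR adjusted p = 0.0275), a call that was lost without either 6 h replicate (adjusted p = 0.198 and 0.0812) or either 0 h replicate (0.0558 and 0.171), and without replicate 1 of MET∆14 at 6 h (0.0501). The responses of the lines differed by 0.77, 1.13 and 0.81 on the log2 scale at 3, 6 and 12 h (edgeR adjusted p = 0.00483, 0.000126 and 0.00238).

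CCND2, the cyclin D2 gene, was scarce in both lines. On the same strand, the protein-coding gene ENSG00000285901 covers 15.4% of its exon bases, where a read could be counted for either gene. CCND2 held 3 to 13 counts in each wt MET library, 0.212 to 0.619 CPM, and 12 to 60 counts in each MET∆14 library, 0.745 to 2.57 CPM. Its MET∆14 libraries had 1.11 and 0.745 CPM at 0 h and 1.87 and 2.57 CPM at 6 h, with no overlap. That rise was called (log2 fold change 1.302 ± 0.353, edgeR adjusted p = 0.00744), but not without replicate 2 of 0 h (adjusted p = 0.103) or replicate 2 of 6 h (0.108). At this depth no change of CCND2 was detectable with wt MET, where the log2 fold changes of 0.55, -0.16 and 0.77 had SEs of 0.581, 0.624 and 0.539.

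CCNE1, the cyclin E1 gene (chromosome 19, 29811991 to 29824312, plus strand), moved in opposite directions in the 2 lines at 6 h. The MET∆14 libraries held 14.4 and 15.2 CPM at 0 h, 24.1 and 23.4 CPM at 3 h, 21.6 and 21.4 CPM at 6 h and 19.5 and 21.6 CPM at 12 h. The wt MET libraries held 3.76 and 3.32 CPM at 0 h, 2.74 and 2.75 CPM at 3 h, 2.66 and 1.88 CPM at 6 h and 4.67 and 4.24 CPM at 12 h. The MET∆14 libraries with HGF were all above their 0 h pair, and the wt MET libraries dipped below theirs at 3 and 6 h and stood above it at 12 h. The rise with MET∆14 was called at 3, 6 and 12 h (0.68 ± 0.121, 0.54 ± 0.121 and 0.47 ± 0.123 on the log2 scale, edgeR adjusted p = 0.000552, 0.00215 and 0.00750), the last of these not without replicate 1 of 0 h (0.0721). The fall with wt MET at 6 h was called (-0.63 ± 0.191, edgeR adjusted p = 0.0193) but not without replicate 1 of 0 h (0.148) or replicate 2 of 6 h (0.289). The climb from 6 to 12 h with wt MET was the clearest step of the line in this gene (0.96 ± 0.178, edgeR adjusted p = 0.00258).

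CCNE2, the cyclin E2 gene, was called in each line at 12 h alone, as higher. Its MET∆14 libraries held 29.6 and 31.1 CPM at 0 h, 34.0 and 33.6 CPM at 3 h, 31.7 and 31.9 CPM at 6 h and 38.5 and 38.1 CPM at 12 h. The 12 h rise was 1.26-fold (log2 fold change 0.33 ± 0.0959, edgeR adjusted p = 0.0123), and not without replicate 1 of 0 h (0.113). With wt MET it went from 0.217 and 0.424 CPM at 0 h to 0.810 and 0.807 CPM at 12 h, on 3 to 17 counts (1.31 ± 0.342, edgeR adjusted p = 0.0316). At such counts this SE too is smaller than their sampling noise. The call was lost without either 12 h replicate (log2 fold changes 1.296 and 1.307) or without replicate 1 of 0 h (0.92).

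CDKN1A, the p21 gene (chromosome 6, 36676460 to 36687337, plus strand), rose early with MET∆14 and came back. Its MET∆14 libraries held 196 and 190.4 CPM at 0 h, 422 and 379 CPM at 3 h, 292 and 331 CPM at 6 h and 168 and 249.6 CPM at 12 h. The 3 h and 6 h pairs lay above the 0 h pair, and the 12 h pair lay on either side of it. The log2 fold changes were 1.05 ± 0.145 at 3 h (2.07-fold, edgeR adjusted p = 5.77e-05), 0.69 ± 0.145 at 6 h (0.00126) and 0.11 ± 0.145 at 12 h (0.590). The 12 h value depended on the library, at 0.37 without replicate 1 of 12 h and -0.21 without replicate 2 of 12 h. With wt MET the gene held 1275 and 1477 CPM at 0 h, 1754 and 1603 CPM at 3 h, 1377 and 1395 CPM at 6 h and 1406 and 1319.8 CPM at 12 h. The 3 h pair was the only one above the 0 h pair (0.29 ± 0.142, edgeR adjusted p = 0.190), and it was called when either 12 h replicate of MET∆14 was left out of the fit (0.00914 and 0.00519).

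CDKN1B, the p27 gene (chromosome 12, 12685498 to 12722369, plus strand), fell in both lines at 3 h and then diverged. In MET∆14 cells its level was 25.0 and 21.8 CPM at 0 h, 12.8 and 12.6 CPM at 3 h, 14.1 and 15.2 CPM at 6 h and 15.98 and 15.1 CPM at 12 h. In wt MET cells its level was 78.4 and 79.5 CPM at 0 h, 52.7 and 55.9 CPM at 3 h, 64.6 and 69.9 CPM at 6 h and 90.1 CPM in both libraries at 12 h. The MET∆14 libraries remained under their 0 h pair, whereas the wt MET libraries passed theirs by 12 h. The log2 fold changes with MET∆14 were -0.88 ± 0.09997, -0.67 ± 0.0965 and -0.58 ± 0.0982 (edgeR adjusted p = 8.78e-06, 5.44e-05 and 0.000301). With wt MET they were -0.54 ± 0.0858 at 3 h (0.000463), -0.23 ± 0.0846 at 6 h (0.0452) and 0.19 ± 0.0836 at 12 h (0.0914, or 0.0355 and 0.0447 without either 12 h replicate of MET∆14), and the call at 6 h was lost when any library other than the 12 h pair of MET∆14 was left out (edgeR adjusted p = 0.0711 to 0.353). The climb from 6 to 12 h with wt MET was called (0.42 ± 0.0839, edgeR adjusted p = 0.00427), and that with MET∆14 was 0.09 ± 0.102 (0.585). The lines did not differ past the threshold in the 3 h response (-0.34 ± 0.132, edgeR adjusted p = 0.0963) and did at 6 and 12 h (-0.44 and -0.77 on the log2 scale, edgeR adjusted p = 0.0179 and 0.000556).

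CDKN1C, the p57 gene (chromosome 11, 2883213 to 2885775, minus strand), fell late and only its MET∆14 values passed the test. They were 9.71 and 8.89 CPM at 0 h, 8.55 and 8.09 CPM at 3 h, 3.29 and 2.83 CPM at 6 h and 4.05 and 5.01 CPM at 12 h. The drop lay between 3 and 6 h (-1.45 ± 0.201 on the log2 scale, edgeR adjusted p = 0.000475). Against 0 h the log2 fold changes were -0.16 ± 0.181 at 3 h (0.543), -1.61 ± 0.197 at 6 h (3.06-fold lower, edgeR adjusted p = 1.11e-05) and -1.05 ± 0.194 at 12 h (0.000601). In wt MET cells it held 1.23 to 2.15 CPM, on 17 to 44 counts, with log2 fold changes of 0.31, 0.59 and 0.37 (edgeR adjusted p = 0.543, 0.112 and 0.316). The lines differed in the 6 h response by -2.20 ± 0.335 (edgeR adjusted p = 0.000164).

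CDKN2C, the p18 gene of the INK4 family (chromosome 1, 50960745 to 50974634, plus strand), fell in both lines. The MET∆14 level was 69.8 and 72.6 CPM at 0 h, 33.5 and 35.4 CPM at 3 h, 26.3 and 23.8 CPM at 6 h and 25.0 and 34.3 CPM at 12 h. The wt MET level was 8.97 and 8.70 CPM at 0 h, 6.81 and 5.42 CPM at 3 h, 4.84 and 5.92 CPM at 6 h and 5.76 and 4.98 CPM at 12 h. In each line every library with HGF was below both libraries without it. The fall with MET∆14 was 2.06-fold at 3 h, 2.85-fold at 6 h and 2.42-fold at 12 h (log2 fold changes -1.04 ± 0.132, -1.51 ± 0.134 and -1.28 ± 0.134, edgeR adjusted p = 2.47e-05, 4.55e-07 and 4.67e-06). With wt MET the log2 fold changes were -0.52 ± 0.183, -0.72 ± 0.182 and -0.71 ± 0.179 (edgeR adjusted p = 0.0631, 0.00693 and 0.00663). The 3 h value was called without either 12 h replicate of MET∆14 (0.0129 and 0.0175), and those at 6 and 12 h were not called without replicate 1 of 6 h (0.101) or without replicate 2 of 12 h (0.0537). The fall was steeper with MET∆14 at 6 h (difference -0.79 ± 0.227, edgeR adjusted p = 0.0151).

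CDKN2D, the p19 gene of the INK4 family (chromosome 19, 10566460 to 10569059, minus strand), went in opposite directions in the 2 lines and met near 1 level at 6 h. With wt MET it held 1.74 and 2.40 CPM at 0 h, 3.87 and 3.80 CPM at 3 h, 3.45 and 3.30 CPM at 6 h and 4.05 and 3.30 CPM at 12 h. With MET∆14 it held 5.21 and 6.51 CPM at 0 h, 5.05 and 4.36 CPM at 3 h, 3.37 and 3.43 CPM at 6 h and 3.83 and 5.65 CPM at 12 h. No wt MET library with HGF overlapped the 0 h pair, and with MET∆14 only the 12 h pair did. CDKN2D rose with wt MET at 3, 6 and 12 h (0.89 ± 0.257, 0.70 ± 0.257 and 0.83 ± 0.251 on the log2 scale, edgeR adjusted p = 0.0269, 0.0463 and 0.0178) and fell with MET∆14 at 6 h (-0.79 ± 0.217, 0.00818). None of these 4 calls held under every library left out, the wt MET calls being lost without 3, 9 and 2 of the 16 libraries, taken singly: without replicate 1 of 0 h the wt MET values were 0.193, 0.274 and 0.148, and without replicate 2 of 0 h or of 6 h the MET∆14 value was 0.101 or 0.0532. The MET∆14 value at 12 h was -0.34 on the log2 scale with all libraries and -0.63 without replicate 2 of 12 h. The responses of the lines differed at each time (-1.22, -1.49 and -1.18 on the log2 scale, edgeR adjusted p = 0.0200, 0.00343 and 0.0175).

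**Figure D2:**
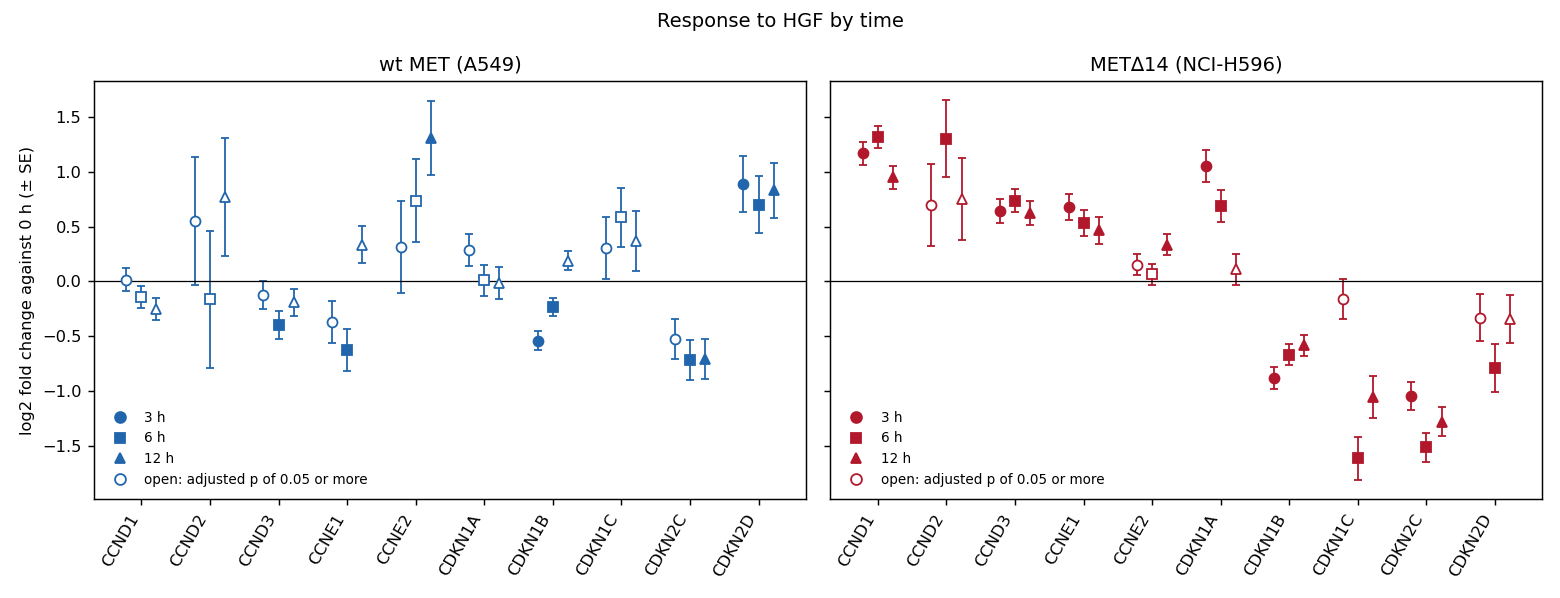
Log2 fold change of each member against 0 h with its SE (bars), for wt MET at the left and MET∆14 at the right, at 3 h (circles), 6 h (squares) and 12 h (triangles), each from 2 against 2 libraries. Filled symbols are called at an adjusted p under 0.05. With MET∆14 the filled symbols of CCND1, CCND3, CCNE1 and CDKN1A lie above 0 and those of CDKN1B, CDKN1C and CDKN2C lie below it, while most symbols of wt MET are open.

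Counted over the members, MET∆14 cells had more calls than wt MET cells at each time, as did all genes. At 3 h 6 of 10 members were called with MET∆14 (31.7% of all tested genes) and 2 with wt MET (17.4%). At 6 h the counts were 9 with MET∆14 (44.1% of all genes) and 5 with wt MET (34.2%), and at 12 h 7 (38.3%) and 3 (35.1%). Single libraries moved the wt MET counts: without replicate 1 of 0 h 1 member was called at each time, and without either 12 h replicate of MET∆14 4 were called at 3 h and 5 at 12 h. At 6 h the wt MET count ranged from 1 to 5 over the libraries left out. The MET∆14 counts at 3 and 6 h were 6 and 9 without replicate 2 of 12 h, as with all libraries. At 6 h the 9 calls with MET∆14 were CCND1, CCND2, CCND3, CCNE1 and CDKN1A as higher (21.6% of all genes) and CDKN1B, CDKN1C, CDKN2C and CDKN2D as lower (22.5%). The median log2 fold change over the members was 0.30 there and -0.04 over all genes. In an F test over the 3 times together, 10 members were called with MET∆14 (54.1%) and 4 with wt MET (40.3%), the latter being CCNE1, CDKN1B, CDKN2C and CDKN2D. Of the 10, CCND2, CCNE2 and CDKN2D were not called by DESeq2 (adjusted p = 0.228, 0.0992 and 0.135).

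The test of whether the time course differed between the lines called 8 members, beside 37.6% of all genes. In CCND1, CCND3, CCNE1 and CDKN1A the mean difference was toward higher values with MET∆14, and in CDKN1B, CDKN1C, CDKN2C and CDKN2D toward lower. At single times the difference was called for 5 members at 3 h, 8 at 6 h and 5 at 12 h, beside 17.4%, 30.2% and 24% of all genes. CCND2 and CCNE2 were not called (edgeR adjusted p = 0.206 and 0.286), with few counts in wt MET. The calls of CDKN1A, CDKN2C and CDKN2D lay near the threshold (edgeR adjusted p = 0.0127, 0.0492 and 0.0104) and were lost without replicate 2 of MET∆14 at 0 h. Each was also lost in at least 1 other of the 21 alternative settings. In a model with 1 time course for both lines, which is additive in line and time, 3 members were called (30.6% of all genes), namely CDKN1A (adjusted p = 0.0119), CDKN1B (0.00214) and CDKN2C (0.000133). CCND1, with the lowest adjusted p of the members in the F test with MET∆14 (6.30e-07), was not among them (0.174), but was called there without a filter (2.62e-05) or without replicate 1 of wt MET at 0 h (0.0266).

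Between successive times few members moved. From 3 to 6 h no member was called with wt MET by edgeR (3.1% of all genes), and with MET∆14 CDKN1C and CDKN2C fell further (9.77% of all genes), CDKN2C by 0.47 on the log2 scale (edgeR adjusted p = 0.0427). From 6 to 12 h CCNE1 and CDKN1B rose with wt MET (11.6% of all genes). Over the same step CCND1 and CDKN1A fell with MET∆14 (18.6%), CCND1 by 0.37 ± 0.102 (edgeR adjusted p = 0.0210) and CDKN1A by 0.58 ± 0.145 (0.0125) on the log2 scale. These were 6 calls in all, and leaving out the second 6 h library of MET∆14 gave a count of 3.

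The gap between the lines changed over the course for several members, in comparisons that were chosen after the values had been seen. CCND1 had no called gap at 0 h with all libraries, though it had one toward lower values with MET∆14 when any 1 of the 3 libraries given above was left out, and with HGF it stood 1.92-fold, 2.38-fold and 1.98-fold higher with MET∆14 (edgeR adjusted p = 5.19e-07, 1.75e-08 and 2.74e-07). CDKN2D went the other way, from 2.83-fold at 0 h to log2 differences of 0.28, 0.01 and 0.33 that were not called (0.263, 0.968 and 0.193). CDKN1C narrowed from 6.80-fold at 0 h to 1.48-fold at 6 h (0.0346). The gap of CDKN1B widened from 3.38-fold lower with MET∆14 at 0 h to 5.77-fold lower at 12 h. In each of the 3 comparisons with HGF 9 members were called, beside 80%, 81.6% and 81.6% of all genes.

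**Figure D3:**
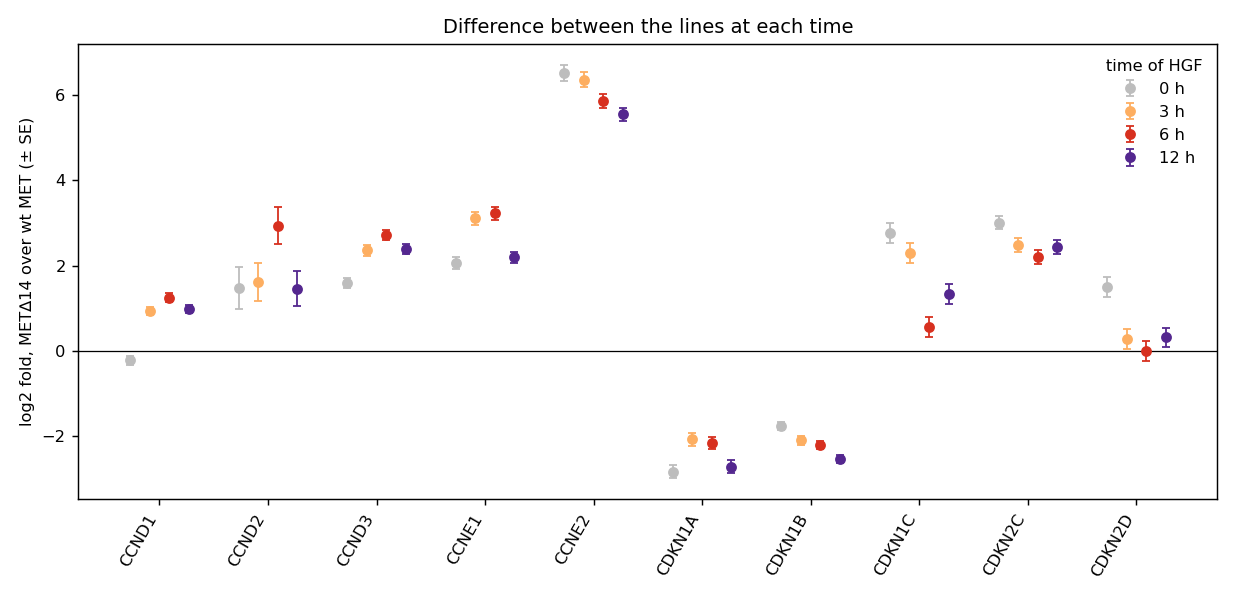
Log2 fold of MET∆14 over wt MET with its SE (bars) for each member, at 0 h (grey), 3 h (orange), 6 h (red) and 12 h (purple), each from 2 against 2 libraries. CCND1 moves from -0.21 at 0 h to 1.25 at 6 h, CDKN1C from 2.77 to 0.57 and CDKN2D from 1.503 to 0.01, while CDKN1A and CDKN1B stay below 0 at every time.

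Levels can be set against each other between genes only per length, and for this CPM were divided by the length of the canonical transcript in kilobases. On that scale CDKN1A led in all wt MET groups, at 649.9 CPM per kb at 0 h, followed by CCND1 at 74.5 and CDKN1B at 32.7, and CCND2 was last in every group. With MET∆14 at 0 h the order was CDKN1A (91.3 CPM per kb), CDKN2C (71.5) and CCND1 (64.3), the last pair of which swaps when all annotated exons are used as the length. CCND1 reached 145 CPM per kb at 3 h, 160.4 at 6 h and 124 at 12 h. At 6 h its libraries (154 to 167) overlapped those of CDKN1A (138 to 156), and at 12 h they stood above them (119.7 to 128 against 79.6 to 118).

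The make-up of each family, on the same scale per length, also differed between the lines. CCND1 made up 88.5% ± 1.98 (SD, n = 2) of the D-type cyclin level with wt MET at 0 h and 69.1% ± 1.05 with MET∆14, where CCND3 held 30.8% ± 1.11. With HGF the CCND1 share with MET∆14 was 76.2% ± 1.74 at 3 h and 76.8% ± 0.963 at 6 h. The E-type cyclins with wt MET at 0 h were CCNE1 for 93.7% ± 3.17, whereas with MET∆14 CCNE2 was the larger share at 59.9% ± 0.0991. CDKN1B was 9.13% ± 0.616 of the CIP/KIP level with MET∆14 at 0 h and 2.65% ± 0.171 at 3 h, and CDKN1A rose from 85.9% ± 0.776 to 95.0% ± 0.253. With all annotated exons as the length, an alternative added after the values had been seen, these shares moved. CCND1 and CCND3 were then 84.9% ± 0.598 and 14.9% ± 0.661 of the D-type level with MET∆14 at 0 h, and CCND1 was 95.1% ± 0.894 with wt MET. CDKN1B was then 3.57% ± 0.255 with MET∆14 at 0 h and 0.994% ± 0.0651 at 3 h, and CCNE2 was 53.4% ± 0.103 of the E-type level at 0 h. On either length CCND1 held less of its family with MET∆14 than with wt MET at 0 h and the share of CDKN1B was lower at 3 h than at 0 h with MET∆14. These shares are descriptions and were not tested.

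The partners of the members differed between the lines as well. CDKN2A (p16) and CDKN2B (p15), the other INK4 genes, had no count in any of the 8 wt MET libraries, which allows up to 0.217 CPM (3 counts) in a library at 0 h. In the MET∆14 libraries at 0 h CDKN2A held 142 and 145 CPM and CDKN2B 54.4 and 52.5 CPM, at least 661-fold and 246-fold higher than that limit. A549 is known for a deletion that takes in both genes, and whether the cells sequenced here carry it was not tested. With HGF CDKN2B fell in MET∆14 cells to 32.1 and 31.5 CPM at 6 h and 26.7 and 23.4 CPM at 12 h (log2 fold changes -0.75 and -1.09, edgeR adjusted p = 0.000151 and 1.82e-05). CDKN2C was lower at these times too, but had already fallen at 3 h, when CDKN2B still held 52.0 and 51.0 CPM. CDKN2A held 144 and 148 CPM at 6 h (0.03, 0.919).

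Of the 8 genes of the G1 CDKs and their activators, 6 rose and none fell with MET∆14 at 6 h by edgeR (2 were not called), beside 21.6% and 22.5% of all genes, and their median log2 fold change was 0.49, beside -0.04 over all genes. With wt MET 1 rose and 1 fell at that time (34.2% of all genes were called), and the median was -0.01, beside -0.05 over all genes. CDK6, the partner of the D-type cyclins, fell with wt MET from 249.7 and 235 CPM at 0 h to 127 and 121 CPM at 6 h (-0.97 ± 0.107, edgeR adjusted p = 8.86e-06). With MET∆14 it rose from 33.8 and 34.5 CPM to 46.2 and 49.2 CPM (0.48 ± 0.114, 0.00308), so that the responses differed by 1.45 ± 0.156 (8.13e-06). CDK4 held 197 and 218 CPM at 0 h with wt MET and 71.7 and 76.9 CPM with MET∆14, and none of its changes with HGF was called. CDK2, the partner of the E-type cyclins, held 10.7 and 13.1 CPM with wt MET and 48.5 CPM in both MET∆14 libraries at 0 h, and rose with MET∆14 at 12 h (0.38 ± 0.0972, edgeR adjusted p = 0.00584). CCNH, the cyclin of the CDK-activating kinase, rose by 0.74 ± 0.111 with MET∆14 at 6 h (8.03e-05).

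RB1, the target of these kinases, held 70.8 and 65.2 CPM with wt MET at 0 h and 10.4 and 9.59 CPM with MET∆14 (log2 difference -2.77 ± 0.115, edgeR adjusted p = 6.81e-12). It rose with wt MET to 109 and 111 CPM at 12 h (0.70 ± 0.0980, 9.63e-05). E2F1, which drives the E-type cyclins, held 1.66 and 2.12 CPM with wt MET at 0 h and 0.286 and 0.336 CPM at 12 h (-2.60 ± 0.431, edgeR adjusted p = 0.000330). That fall rests on few counts, 23 and 30 at 0 h and 6 and 5 at 12 h. With MET∆14 it held 57.2 to 95.0 CPM and was not called at any time against 0 h. E2F4, a repressor of the family in resting cells, rose with MET∆14 from 53.5 and 51.1 CPM at 0 h to 102 and 107 CPM at 6 h (1.001 ± 0.0793, edgeR adjusted p = 1.499e-07). Of the 8 pocket protein and E2F genes, 3 rose and 3 fell with MET∆14 at 6 h (44.1% of all genes were called), with a median log2 fold change of -0.24, and 3 rose and 4 fell with wt MET (34.2%), with a median of -0.48.

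Of 14 genes for the turnover of G1 cyclins and CIP/KIP inhibitors, 4 rose and 4 fell with MET∆14 at 6 h (44.1% of all genes were called), and 4 rose and 2 fell with wt MET (34.2%). SKP2, which marks CDKN1B protein for degradation, held 6.87 and 4.53 CPM with wt MET and 111 and 116 CPM with MET∆14 at 0 h, and fell with wt MET at 3 h (-1.17 ± 0.204, edgeR adjusted p = 0.000979). FBXW7, which marks cyclin E protein for degradation, was lower with MET∆14 from 3 h on. It held 100.8 and 99.7 CPM at 0 h and 55.1 and 59.8 CPM at 3 h. The 6 h libraries held 53.7 and 57.1 CPM, and those at 12 h held 57.1 and 51.4 CPM. At 12 h the log2 fold change of FBXW7 against 0 h was -0.88 ± 0.0862 (edgeR adjusted p = 2.34e-06). Of 13 transcription regulators of G1 genes, 4 rose and 7 fell with MET∆14 at 6 h (21.6% and 22.5% of all genes did), and 7 rose and 3 fell with wt MET (34.2% of all genes were called). FOS, a subunit of AP-1, rose with wt MET at 3 h (4.20 ± 0.141, edgeR adjusted p = 3.04e-11), and FOSL1, another subunit, rose with MET∆14 at 3 h (3.04 ± 0.151, 5.39e-09). FOSL1 was also higher at 3 h with wt MET, at 2594 and 2534 CPM against 897 and 1254 CPM at 0 h. FOS with MET∆14 held 36.2 and 34.3 CPM at 0 h and 30.9 and 29.4 CPM at 3 h.

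The other 16 p53 targets were set beside CDKN1A, which rose with MET∆14 at 3 h. At that time 4 of them rose and 9 fell with MET∆14, beside 31.7% of all genes called, with a median log2 fold change of -0.33, beside -0.05 over all genes. At 0 h all 16 were lower with MET∆14 than with wt MET (39.6% of all genes were), with a median log2 difference of -2.55 beside -2.83 for CDKN1A. TP53INP1 fell with MET∆14 at 6 h (log2 fold change -2.51 ± 0.119, edgeR adjusted p = 1.73e-09). GDF15 rose with MET∆14 at 3 h (1.05 ± 0.133, edgeR adjusted p = 2.55e-05), as CDKN1A did. At 12 h it was at 8.76 and 14.3 CPM from 45.0 and 45.8 CPM at 0 h (-2.03 ± 0.156, edgeR adjusted p = 2.83e-07). With wt MET, where CDKN1A was not called at 3 h, GDF15 was also higher then, at 465 and 428 CPM against 240 and 228 CPM at 0 h.

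**Figure D4:**
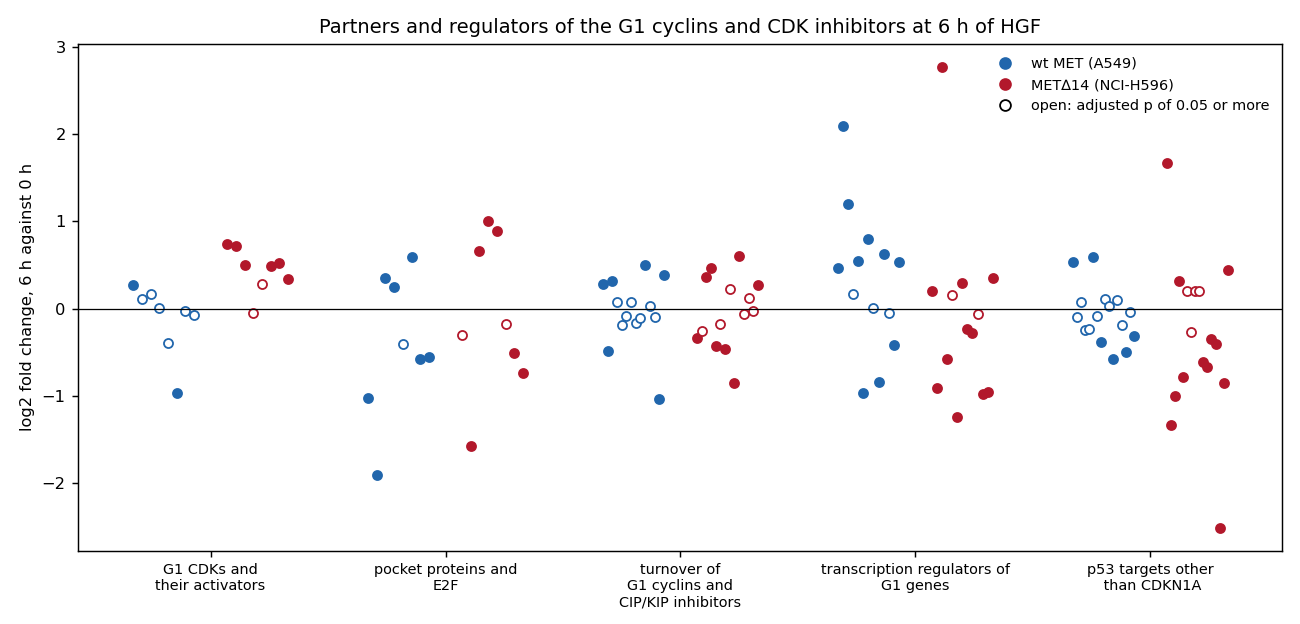
Log2 fold change at 6 h against 0 h of each gene of 5 lists of partners and regulators, for wt MET (blue) and MET∆14 (red), with 1 point a gene and filled points called at an adjusted p under 0.05. The 6 filled red points of the G1 CDKs and their activators all lie above 0, and the other lists have filled points on both sides of 0.

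Within MET∆14 cells some pairs of members varied together over the 8 libraries and others did not, as a description in which all pairs share the same libraries and time points. The absolute r on log2 CPM ran from 0.034 to 0.99 over the 45 pairs, with a median of 0.65, and was under 0.5 in 15 of them. With wt MET the median was 0.35, and 35 pairs were under 0.5. The pairs named here are among the strongest. CCND1 and CCND3 had r = 0.96, CCNE1 and CDKN1B r = -0.99, and CCND1 and CDKN2C r = -0.93, on log2 CPM. In wt MET cells the same pairs had r = 0.20, r = 0.69 and r = 0.48. For the 4 members called over time in both lines, the genes with the most similar course were sought among 9638 genes by the correlation of log2 CPM centred within each line over the 16 libraries. They were C19orf12 (r = 0.907) and UCK2 (0.904) for CCNE1, FZD1 (0.936) and CBLB (0.908) for CDKN1B, DHRS3 (0.963) and ING4 (0.945) for CDKN2C, and RAB5A (0.877) and SLC35G2 (0.863) for CDKN2D.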

How the data were processed

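PolyA RNA of 16 cultures was prepared with an RNeasy kit and sequenced from Illumina TruSeq libraries. The authors trimmed adapters, aligned reads to hg38 with STAR and deposited 1 table of counts per gene, whole numbers that were not normalised. The submitters' processing notes name STAR 2.5.0 and RSEM 1.3.2, and the role of RSEM is not stated, so the counts may be rounded estimates. The annotation release and the use of strand are not given in the sources used here. Groups came from the sample titles, and columns whose names begin H549 were matched to titles that begin A549 by the rest of the name. The labels give 12 h of serum deprivation, and the study's methods a longer time. In the labels replicates differ only by a number, so p-values measure the spread between these samples.

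Genes were kept with edgeR 4.0.16 (R 4.3.3, limma 3.58.1) by filterByExpr (minimum count 10, total 15), which left 15067 genes with 99.958% of counts. Counts were scaled by TMM and fitted by a robust quasi-likelihood model over all 16 libraries with 1 coefficient for each of the 8 conditions, so that all conditions share an estimate of the spread. Contrasts and F tests were adjusted by Benjamini-Hochberg over all tested genes at 0.05. SEs are log2 fold changes divided by the root of their F statistic. For genes with few counts, such as CCNE2 with wt MET, an SE printed or drawn here can be smaller than the sampling noise. The study used DESeq2 with cell line and time as terms, and this additive formula was fitted in edgeR as a further comparison. The contrasts between the lines at 3, 6 and 12 h were added after the values had been seen. The members and gene lists were chosen with earlier results of these data known. From each list of partners at most 2 called genes with mean log2 CPM of at least 3 and the largest change were named, with CDKN2A, CDKN2B, RB1, CDK4, CDK6 and CDK2 whatever their values.

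Replicates differed by more than sampling noise (chi-square per degree of freedom 2.69 to 32.9), so none were counted as 1 sample. The highest values were 32.9 for MET∆14 at 12 h and 9.42 for wt MET at 0 h, the baseline of the wt MET fold changes. The other conditions had 2.69 to 4.41. Alternatives were DESeq2 1.42.0, its size factors in edgeR, no filter, at least 10 counts in every library, a replicate block, each line fitted alone, and each library left out. Scripts were tested on simulated counts. Promoters were taken from a RefSeq table (GRCh38.p14), in which CDKN2C, CDKN1A, CCND3, CDKN1B, CDKN2D and CCNE1 were found, and lengths from GENCODE v44.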

Additional observations from a re-analysis of the deposited data

Results flagged for a closer look

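The response to HGF differed between MET∆14 and wt MET for 8 of the 10 members in an F test over the 3 differences of the time contrasts (edgeR, adjusted over all tested genes), beside 37.6% of all genes. For CCND1 (adjusted p = 1.14e-05), CCND3 (0.000551) and CCNE1 (0.000829) the mean of the 3 differences was 1.27, 0.90 and 0.78 on the log2 scale, higher with MET∆14, and for CDKN1A (0.0127) it was 0.52. For CDKN1B (0.00197), CDKN1C (0.000452), CDKN2C (0.0492) and CDKN2D (0.0104) it was -0.52, -1.36, -0.63 and -1.30. The time courses share their 0 h libraries, and 1 line stands for each form of MET, so line and form of MET cannot be told apart.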

How the results depend on the processing

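With MET∆14 the number of members called moved by less than 1.5 times under every alternative run at 3 h (6 in each), 6 h (9, or 7 to 9 with a library left out), 12 h (7, or 5 to 8) and over the 3 times together (10, or 7 to 10). With wt MET it did not. At 3 h it was 2, and 4 without a filter or with each line fitted alone (1 to 4 with a library left out). At 6 h it was 5, and 2 by DESeq2 and 3 without a filter (1 to 5, with 1 without replicate 1 of 0 h or either 6 h replicate). At 12 h it was 3, and 5 with each line fitted alone (1 to 5, with 1 without replicate 1 of 0 h or either 12 h replicate). Over the times together it was 4 (2 to 6, with 2 without replicate 1 of 0 h). The difference in response was called for 8 members (5 to 8, with 5 without replicate 2 of MET∆14 at 0 h), the additive time effect for 3 (5 without a filter), and steps between times for 6 (3 with each line fitted alone, 3 to 7 with a library left out and 3 without replicate 2 of MET∆14 at 6 h). The cause of these moves was not tested. CDKN1A with wt MET at 12 h, -0.01 on the log2 scale and never called, changed sign to 0.0011 with DESeq2 size factors and by DESeq2, 0.0099 with at least 10 counts in every library and 0.0040 with the line alone. With a library left out it ran from -0.11 to 0.094. The other values that changed sign with a library left out, none of them called with all libraries, ran with wt MET from -0.094 to 0.17 for CCND1 at 3 h, -0.26 to 0.012 for CCND1 at 6 h, -0.56 to 0.42 for CCND2 at 6 h, -0.27 to 0.040 for CCND3 at 3 h, -0.075 to 0.89 for CCNE2 at 3 h, -0.091 to 0.15 for CDKN1A at 6 h and -0.023 to 0.62 for CDKN1C at 12 h, and with MET∆14 from -0.21 to 0.37 for CDKN1A at 12 h. Where a library was left out, its partner was assumed to vary like the other groups. With at least 10 counts in every library CCND2 and CCNE2 were not tested.

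No shift shared by samples of the same replicate number was seen. Replicate differences at one time and another had r of -0.159 to 0.0350 with MET∆14 and -0.0528 to 0.0345 with wt MET. The labels do not say whether equal numbers were handled together, and these values cannot exclude it. With the replicate block 3 members were called with wt MET at 6 h in place of 5, 7 with MET∆14 over the times together in place of 10, and 7 in the difference of response in place of 8.

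Depth limits CCND2 and CCNE2 with wt MET, which had at most 17 counts in a library, and CDKN1C and CDKN2D there, with 17 to 85 counts. Each condition has 2 libraries.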
